A study of Mus musculus with 3 samples.

Results

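Axon guidance ligands and their receptors were followed on 3 arrays of N1E-115, a line of mouse neuroblastoma, a tumour of sympathetic origin. The genes were the semaphorins of classes 3 to 7, plexins, neuropilins, ephrins, Eph receptors, Slits, Robos, netrins, Dcc and Unc5 genes. Spots were taken by the gene symbol in the array files. This gave 70 spots of 23232 on the array, each a probe of its own, for 61 gene symbols. Of these, 36 were ligand probes and 32 receptor or co-receptor probes. The other two, Unc50 and Unc5cl, matched the letters of the name alone. Unc50 is unrelated to the netrin receptors, and Unc5cl encodes a death-domain protein that does not bind netrins. Probes were taken by symbol and not by a measured value. The set of symbols was, however, chosen with earlier results of these data known.

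Each array held the RNA of cells transfected with pEGFP-NaV1.2CT-Flag beside that of cells transfected with the control plasmid pEGFP-C1. The first plasmid encodes a fusion of EGFP with 229 residues from the C-terminus of mouse NaV1.2, the sodium channel made from Scn2a, and is called NaV1.2CT here. The control encodes EGFP alone and is called EGFP. Both came from the same line, received 2 µg of plasmid 24 h after plating and gave RNA 48 h later, pooled from 3 dishes. There was 1 array of the low glucose group, at 5 mM, and there were 2 of the high glucose group, at 20 mM. These levels are those of the sample labels, while the growth protocol gives low-glucose medium throughout. No source used here gives the share of cells that took up the plasmid, and cells with and without it were measured together, so a change in few cells and a smaller one in many cannot be told apart. The high glucose experiment is described as repeated, with no word on separate cultures, and the p-values may therefore hold technical spread alone.

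Guidance cues steer growing axons by attraction or repulsion at the growth cone. Semaphorins act through plexins, for most secreted class 3 semaphorins with a neuropilin as co-receptor. Ephrins act on Eph receptor tyrosine kinases at cell contacts, Slits repel through Robo receptors, and netrins attract through Dcc and repel through Unc5 receptors. In the sympathetic lineage, neuropilin and semaphorin signals guide migrating neural crest cells and sympathetic axons.

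Median raw intensity of the gene spots lay between 890 and 1354 in the NaV1.2CT channel and between 1106 and 1706 in the EGFP channel, over a local background of 44.7 to 54.3. A probe was counted as above the empty limit when its signal over background passed the 95th percentile of the empty spots in both channels. On all 3 arrays 64 of the 70 probes did, and of all probes 89.7%. Nrp1, Robo1, Slit2, Ntn4 and Efnb1 did so on none, and one Sema3c probe on the high glucose arrays only. All 21 probes of sympathetic neuroblastoma markers passed this limit on every array, but so did 16 of 23 probes for fibroblasts, glia, blood and endothelium. Passing the limit is therefore no proof of the named transcript, and gene names below refer to spots. None of the 23 probes of other cell types passed the test in any comparison, beside at most 3.85% of all probes. The only Scn2a probe had a log2 ratio of 0.11 ± 0.022 (SD, n = 3). Its position on the transcript was not analysed here, so it does not check the transfected sequence. NaV1.2CT was in Alexa647 and EGFP in Alexa555 throughout, so dye and plasmid effects on a probe cannot be told apart.

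No axon guidance probe passed the test over the 3 arrays. Values are log2 ratios of NaV1.2CT over EGFP unless stated otherwise, and 3 values in a row stand for low glucose and high glucose replicates 1 and 2. The mean lay between -0.15 for Epha2 and 0.15 for Ephb2. Of the 70 probes, 37 had a mean above 0 and 33 below. Their median was 0.0059, beside -0.0034 for all 21761 gene probes, of which 48.1% were above 0. The test was limma's moderated test with p-values adjusted over all probes (Benjamini-Hochberg) and called at 0.05. It called 0 of the 70, while 3.85% of all probes passed. At an unadjusted p of 0.05, 14 of the 70 passed, beside 24% of all probes. Of these 14, 8 were above 0, beside 9.31% of all probes, and 6 below, beside 14.7%. The lowest adjusted p was 0.0732.

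The intervals gave a size to the changes in log ratio that the test could have missed. The 95% interval of the mean reached 0.083 to either side of the mean in the median probe, on the log2 scale, and the interval of every one of the 70 probes stayed within 0.3 of 0. The bound farthest from 0, for Ephb2, was 0.28. Among all probes, the smallest mean that passed the adjusted threshold had a size of 0.14. Normexp with an offset of 50 pulls ratios of dim spots toward 0, so these bounds refer to ratios on that scale. They also refer to loess per print block. With loess over the whole array the 3-array mean of Efna1 was -0.38, and with median centring that of Sema3b was 0.43. The intervals, like the p-values, may hold technical spread alone. Ratios of the 5 probes under the empty limit carry no measured size and are given no value in the text, though class medians and counts include them.

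**Figure D1:**
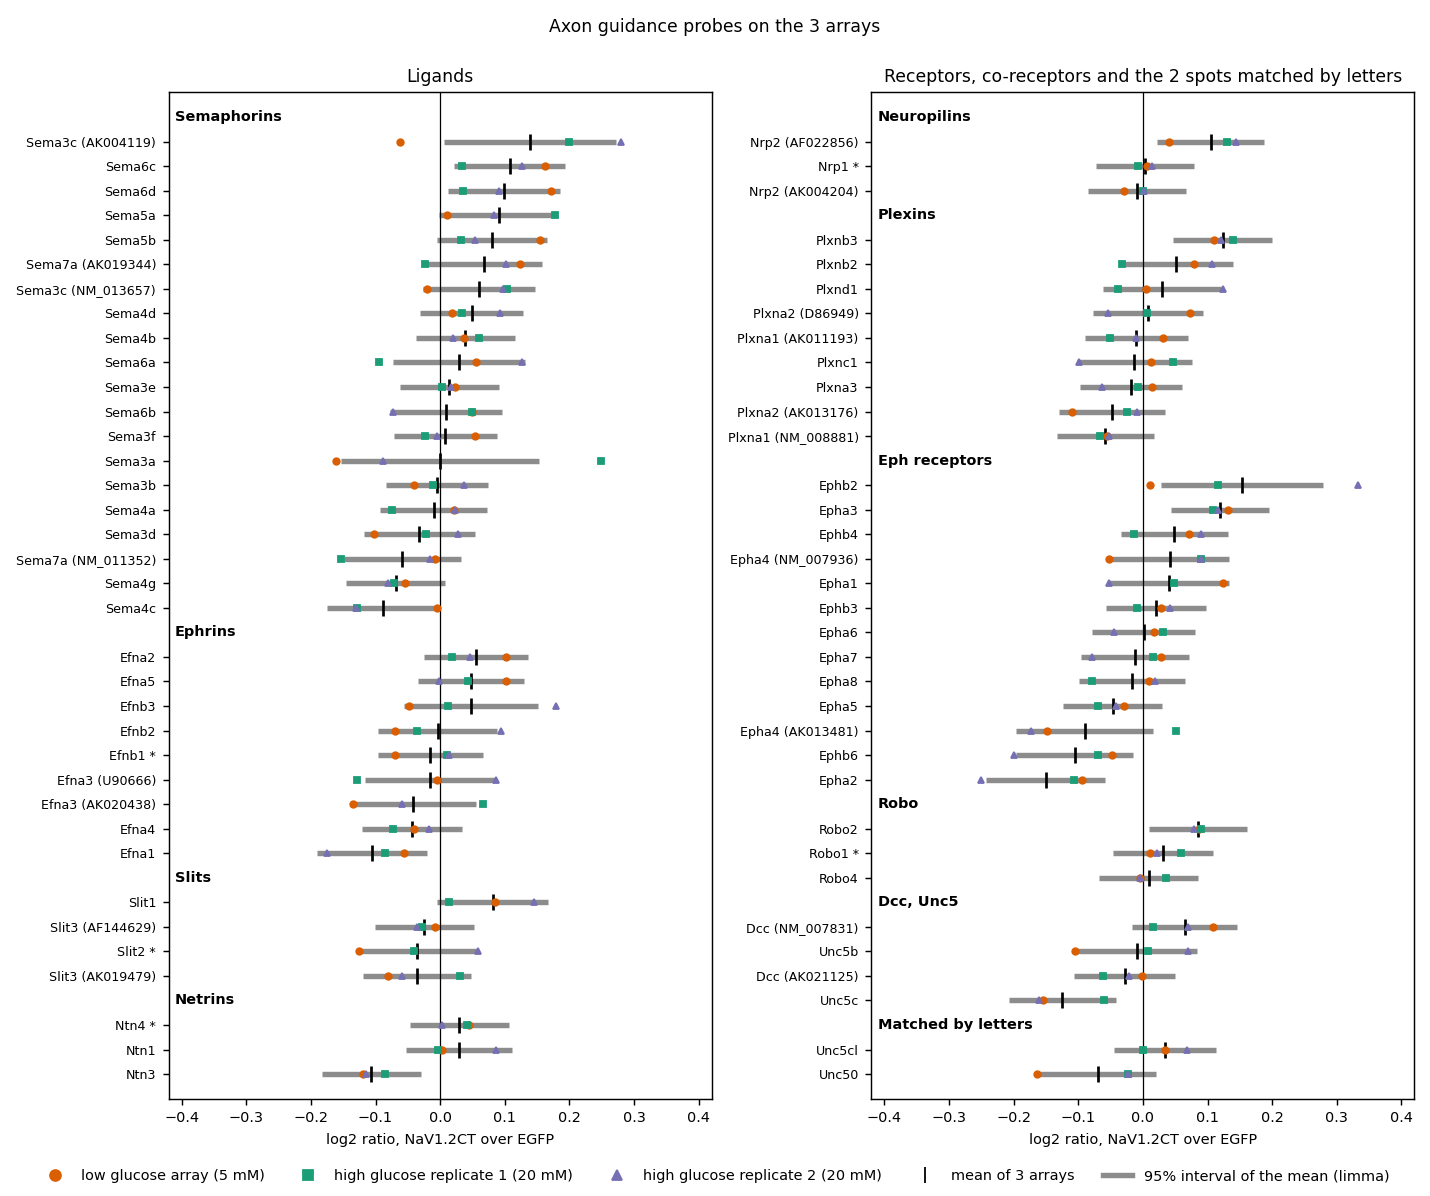
The log2 ratio of NaV1.2CT over EGFP (x axis) is plotted for each of the 70 probes (rows, by class, ordered by mean), with 1 symbol per array, a tick for the mean of the 3 arrays and a grey bar for its 95% interval from limma. An asterisk marks the 5 probes under the empty limit on every array. Means run from -0.15 to 0.15, and most bars cross 0.

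Semaphorins were the largest class, with 20 probes for 18 genes. Their median log2 ratio was 0.020 at low glucose and 0.018 and 0.033 at high glucose, and 13 of the 20 means were above 0. At the top stood the Sema3c probe AK004119, whose mean of 0.14 joined arrays that differed and is described with the high glucose arrays. Sema6c and Sema6d, transmembrane semaphorins that bind class A plexins, followed. Sema6c was at 0.16 at low glucose and 0.034 and 0.13 at high glucose, a mean of 0.11 ± 0.067 (SD, n = 3, adjusted p 0.131). Sema6d was at 0.17 at low glucose and 0.035 and 0.090 at high glucose, a mean of 0.10 ± 0.069 (adjusted p 0.159). Both were above 0 on every array and highest on the low glucose array.

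Of the thrombospondin-repeat semaphorins, Sema5a had a mean of 0.090 ± 0.084 and Sema5b of 0.080 ± 0.065, each above 0 on 3 of 3 arrays. They differed in which array was highest. Sema5a reached 0.18 on high glucose replicate 1 and 0.010 on the low glucose array, while Sema5b reached 0.15 on the low glucose array. The lowest semaphorin was Sema4c, a transmembrane ligand of plexin-B2. It stood at -0.0053 at low glucose and -0.13 and -0.13 at high glucose (mean -0.088 ± 0.072, SD, n = 3, adjusted p 0.204). Sema4g, at -0.055, -0.071 and -0.081 in the same order of arrays, was below 0 on all 3. Sema4d, the ligand of plexin-B1, was at 0.018, 0.035 and 0.093 (mean 0.049 ± 0.039, adjusted p 0.43) and Sema4b at 0.036, 0.061 and 0.020. The values of both were above 0 on every array and within 0.1 of it.

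Sema3a, the secreted repellent of sensory and sympathetic axons that binds neuropilin-1, had the widest spread of all 70 probes. It stood at -0.16 at low glucose and 0.25 and -0.089 at high glucose. The arrays of high glucose lay on opposite sides of 0, and the mean of -0.00035 ± 0.22 (SD, n = 3) had an interval of -0.15 to 0.15 (adjusted p 0.998). Sema3f, which acts through neuropilin-2, was close to 0 at 0.053, -0.024 and -0.0054 in that order, and so was Sema3b at -0.041, -0.011 and 0.037. Sema3d had a mean of -0.032 ± 0.066. Sema4a had a mean of -0.010 ± 0.056, Sema6a, which signals through plexin-A2 and plexin-A4, one of 0.029 ± 0.11 and Sema6b one of 0.0091 ± 0.070. Each of these means was smaller than the spread between its arrays. Sema3e, a direct ligand of plexin-D1, was above 0 on every array, but at only 0.024, 0.0034 and 0.016 (mean 0.014 ± 0.010, adjusted p 0.825).

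Of the ephrin probes, 3 of 9 had a mean above 0, with a median of -0.049 at low glucose. On both high glucose arrays the middle probe was Efnb1, under the empty limit, so no median is given there. Efna1, a membrane-anchored ligand of EphA2 and other EphA receptors, was lowest. It was at -0.055 at low glucose and -0.085 and -0.18 at high glucose, a mean of -0.11 ± 0.063 (SD, n = 3, adjusted p 0.134), and below 0 on every array. The highest was Efna2, at 0.10 at low glucose and 0.018 and 0.046 at high glucose (mean 0.055 ± 0.043, adjusted p 0.371). Efna5, which repels retinal axons through EphA receptors, was at 0.10, 0.043 and -0.0011 and crossed 0 (mean 0.048 ± 0.052, adjusted p 0.449). Efna4 was at -0.041, -0.072 and -0.017, below 0 on all 3. The transmembrane ligand Efnb2 stood at -0.069, -0.036 and 0.093 (mean -0.0040 ± 0.086, adjusted p 0.965) and Efnb3 at -0.049, 0.013 and 0.18. In both the low glucose array was lowest and high glucose replicate 2 highest.

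Slits and netrins, the secreted cues of the midline, had 3 of 7 means above 0. Slit1 was the highest, at 0.086 at low glucose and 0.013 and 0.14 at high glucose, a mean of 0.081 ± 0.066 (SD, n = 3, adjusted p 0.229). It was above 0 on every array. The lowest Slit was the Slit3 probe AK019479, with a mean of -0.036 ± 0.059 (adjusted p 0.586). Slit2 passed the empty limit in the EGFP channel on both high glucose arrays but in the NaV1.2CT channel on none, so no ratio is given. Netrin-3, encoded by Ntn3, was at -0.12 at low glucose and -0.085 and -0.11 at high glucose. These 3 values lay close together below 0, with a mean of -0.11 ± 0.019 (adjusted p 0.105) and an interval of -0.18 to -0.030. Netrin-1, encoded by Ntn1, the attractant of commissural axons, was at 0.0029 at low glucose and -0.0029 and 0.087 at high glucose (mean 0.029 ± 0.050, adjusted p 0.66). Ntn4 was under the empty limit in both channels of every array.

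Plexins, the signalling receptors for semaphorins, had 9 probes and 4 means above 0. Plxnb3 was highest and even across arrays, at 0.11 at low glucose and 0.14 and 0.12 at high glucose. Its mean was 0.12 ± 0.016 (SD, n = 3, interval 0.047 to 0.20), with an adjusted p of 0.0746. With loess over the whole array it was 0.18 and passed (limma adjusted p 0.0061), as did 34.9% of all probes. With median centring it was 0.089 and did not pass. The lowest plexin probe was Plxna1 NM_008881, at -0.055 at low glucose and -0.067 and -0.052 at high glucose (mean -0.058 ± 0.0080, adjusted p 0.325), below 0 on every array. Plxnd1, the receptor of Sema3e, was at 0.0056, -0.039 and 0.12 and Plxnb2 at 0.080, -0.033 and 0.11, both lowest on high glucose replicate 1 and highest on replicate 2. Plxnc1, the receptor of Sema7a, was at 0.012, 0.047 and -0.10 and Plxna3 at 0.015, -0.0081 and -0.062. Those receptors had means of -0.013 ± 0.076 and -0.019 ± 0.040, inside their spread. Plxnb1 was not analysed here.

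Of the neuropilins, Nrp1 was under the empty limit and only Nrp2, the co-receptor for Sema3f and Sema3c, could be read. Its probe AF022856, described in the files as an alternatively spliced form, was at 0.040 at low glucose and 0.13 and 0.14 at high glucose. The mean was 0.10 ± 0.056 (SD, n = 3, adjusted p 0.13), above 0 on every array and highest on the high glucose arrays. Its other probe, AK004204, was at -0.029, -0.000090 and 0.0011, a mean of -0.0092 ± 0.017 (adjusted p 0.894).

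Eph receptors held both ends of the 70 probes, with 7 of 13 means above 0 and a median of 0.010 at low glucose and 0.015 and -0.042 at high glucose. Ephb2, a receptor of B ephrins in commissural and hippocampal axons, was highest, at 0.010 at low glucose and 0.12 and 0.33 at high glucose. It was near 0 on the low glucose array, and its value on high glucose replicate 2 was the largest log2 ratio of any axon guidance probe on any array. Its mean of 0.15 ± 0.16 (SD, n = 3) was smaller than its spread (adjusted p 0.14). With loess over the whole array the mean was 0.079, and with median centring 0.0022. Epha3, an EphA receptor that binds ephrin-A5, was even across arrays at 0.13 at low glucose and 0.11 and 0.12 at high glucose. The mean was 0.12 ± 0.012 (adjusted p 0.08, interval 0.043 to 0.19), and -0.020 with median centring in place of loess.

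Epha2, a receptor of ephrin-A1, was lowest, at -0.094 at low glucose and -0.11 and -0.25 at high glucose. All 3 arrays were below 0, with a mean of -0.15 ± 0.087 (SD, n = 3, interval -0.24 to -0.058, adjusted p 0.0732), while with median centring the mean was 0.035. Ephb6, whose kinase domain is inactive, was also below 0 on every array, at -0.047, -0.069 and -0.20. Its mean was -0.11 ± 0.082 (adjusted p 0.155). The other Eph receptor below 0 on all arrays was Epha5, at -0.030, -0.069 and -0.042, each within 0.1 of 0. Epha1, Epha6, Epha7, Epha8, Ephb3 and Ephb4 had means from -0.017 to 0.049, and each had arrays on both sides of 0.

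Robo receptors and the netrin receptors had few probes. Robo2, a receptor of Slits in commissural and retinal axons, had the smallest spread of all, at 0.086 at low glucose and 0.090 and 0.080 at high glucose. Its mean was 0.085 ± 0.0053 (SD, n = 3, interval 0.010 to 0.16, adjusted p 0.165). Robo4, a receptor of endothelial cells, was at -0.0040, 0.035 and -0.0038, a mean of 0.0092 ± 0.023 (adjusted p 0.896). Unc5c, which turns netrin signals to repulsion, was the lowest netrin receptor, at -0.15 at low glucose and -0.060 and -0.16 at high glucose. It was below 0 on every array, with a mean of -0.12 ± 0.056 (interval -0.21 to -0.042, adjusted p 0.0872). With loess over the whole array Unc5c was at -0.21 and with median centring at -0.31. It passed in both, where 34.9% and 40.4% of all probes passed. Unc5b was at -0.10, 0.0081 and 0.069, a mean of -0.0091 ± 0.088 (adjusted p 0.915). Dcc, the attractive netrin receptor, was at 0.11, 0.015 and 0.070 at the probe NM_007831, above 0 on every array (mean 0.065 ± 0.047, adjusted p 0.304). Of the spots that matched by letters alone, Unc5cl had a mean of 0.034 ± 0.034 and Unc50 of -0.070 ± 0.081.

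Ligand and receptor probes had medians close to each other. The median of the 3-array means was 0.0086 over the 36 ligand probes and 0.0024 over the 32 receptor probes, with 19 and 17 means above 0. Among ligands, 9 of 13 membrane-bound semaphorin probes and 4 of 7 secreted class 3 probes had a mean above 0. Of the 70 probes, 18 were above 0 on every array and 15 below, beside 21.8% and 25.1% of all probes. Together these were 33, beside 46.9%. The probes shared arrays and print blocks, so these counts carry no test. The SD across the 70 probes was 0.081 at low glucose and 0.076 and 0.10 at high glucose, against 0.10, 0.10 and 0.11 over all probes.

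Over the 2 high glucose arrays alone, 1 of the 70 probes passed the test, beside 2.11% of all probes. It was higher with NaV1.2CT, beside 0.689% of all probes that passed as higher. No axon guidance probe passed as lower, beside 1.42%. At an unadjusted p of 0.05, 13 of the 70 passed, beside 22.2% of all probes, with 7 higher (all probes 8.71%) and 6 lower (13.5%). The probe was Sema3c AK004119, for a secreted semaphorin that guides cardiac neural crest cells and cortical axons. Its normalised intensity was 371 and 418 in the NaV1.2CT channel, against 323 and 344 in the EGFP channel. NaV1.2CT was the brighter channel on both arrays. Sema3c rose by 0.24 ± 0.057 on the log2 scale at this probe (SD, n = 2, interval 0.14 to 0.34, limma adjusted p 0.0373). Before normalization the EGFP channel was the brighter at this spot, with signals over background of 239 and 200 for NaV1.2CT and 338 and 239 for EGFP. The EGFP channel was also brighter in the median over all spots, as given above. On the low glucose array the signal was 14 for NaV1.2CT and 26.3 for EGFP, both under the empty limit.

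The call at Sema3c rested on the settings. The adjusted p was 0.152 with plain background subtraction, 0.0996 with a normexp offset of 0, and 0.118 with the authors' net intensities, at log2 ratios of 0.39, 0.29 and 0.37. With loess over the whole array it was 0.415 at a log2 ratio of 0.057, and with median centring the sign turned, to -0.047. The second Sema3c probe, NM_013657, lay at -0.020 at low glucose and 0.10 and 0.10 at high glucose. Over the high glucose arrays it averaged 0.10 ± 0.0053 (SD, n = 2, adjusted p 0.196), in the same direction at a smaller size. Next in order was Ephb2, at 0.22 ± 0.15 (adjusted p 0.0729). Ephb2 passed when probes under the 25th percentile of intensity were left out (adjusted p 0.0417) and after a second loess over intensity (0.0411). It did not pass with plain background subtraction (0.244), a normexp offset of 0 (0.147) or the authors' net intensities (0.209, and 0.237 with loess per print block). Nor did it with loess over the whole array (0.0514) or median centring (0.408, at a log2 ratio of 0.072). Epha2 followed, at -0.18 ± 0.10 (adjusted p 0.0865). Nrp2 AF022856 stood at 0.14 ± 0.0090 and Sema4c at -0.13 ± 0.00042, with adjusted p of 0.108 and 0.119.

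A further comparison asked whether the log ratio differed between glucose levels, as the low glucose array minus the mean of the high glucose arrays. None of the 70 probes passed, beside 0.0276% of all probes. At an unadjusted p of 0.05, 1 of the 70 passed, beside 7.5%. That probe was lower at low glucose, beside 4.16% of all probes, and 0 were higher, beside 3.34%. It was Sema3c AK004119, whose low glucose value was under the empty limit, at -0.30 (limma adjusted p 0.445). The test has 1 low glucose array and takes it to vary like the others. The arrays of the 2 glucose levels also carry different numbers in their names. If these stand for batches of arrays, batch and glucose cannot be told apart. In the median probe the interval reached 0.17 to either side, wider than for the 3-array mean. Among probes above the empty limit everywhere, the lowest difference was at Sema3a, -0.24 (interval -0.52 to 0.039), and the next at Ephb2, -0.21 (interval -0.43 to 0.0040). The highest were at Epha1, 0.13, and Sema4c, 0.12. On 9 of the 70 probes the low glucose array lay on the other side of 0 from both high glucose arrays, beside 20.8% of all probes. In 3 of these the low glucose value was the positive one, beside 10.2% of all probes, and in 6 the negative one, beside 10.6%. The 6 include Efnb1, under the empty limit on every array, and Sema3c AK004119, under it at low glucose. Their signs there are not measured ones.

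The log ratios of axon guidance probes repeated between arrays only in part. Across the 70 probes, Pearson's r was 0.393 between the high glucose arrays, 0.137 between the low glucose array and high glucose replicate 1, and 0.392 with replicate 2. Over all 21761 probes it was 0.484, 0.458 and 0.321. These describe probes, which share arrays, dyes and print blocks, and are no test. Between the high glucose arrays, r was 0.288 over ligand probes and 0.563 over receptor probes. The side of 0 was kept by 22 of 36 ligand probes and 18 of 32 receptor probes, and by 42 of the 70 probes. The share of all probes that did was 67.7%.

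**Figure D2:**
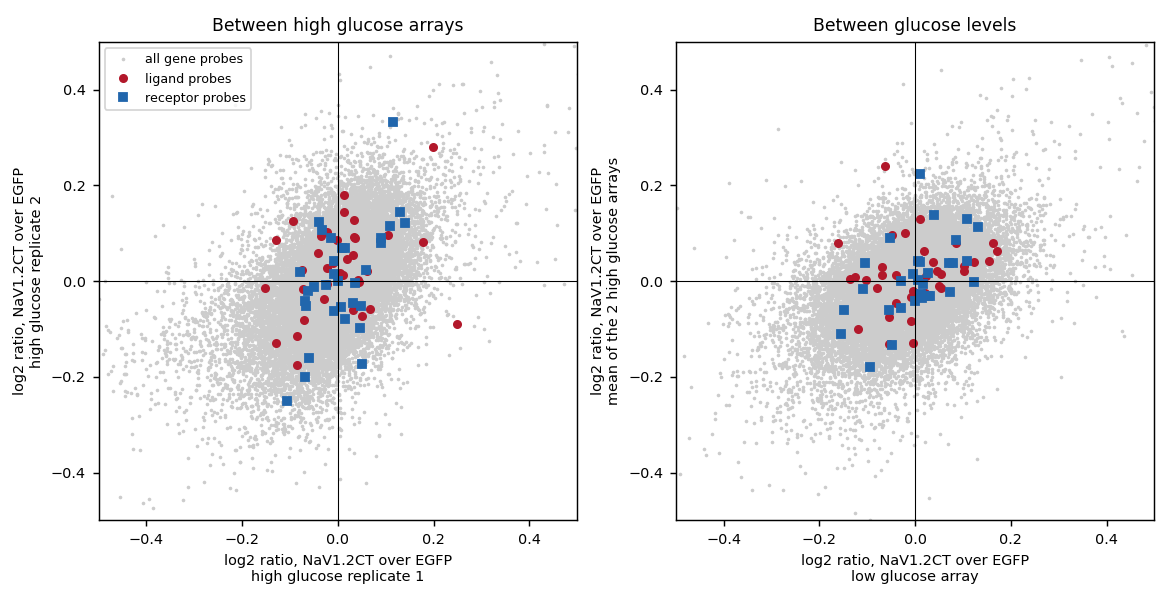
Log2 ratios of NaV1.2CT over EGFP are set against each other for high glucose replicates 1 and 2 (left) and for the low glucose array and the mean of the high glucose arrays (right), with ligand probes as circles, receptor probes as squares and all gene probes in grey. Each axis is shown from -0.5 to 0.5, which leaves some grey points outside. Sema3a, at 0.25 and -0.089 on the high glucose arrays, lies away from the diagonal on the left, and Ephb2, at 0.12 and 0.33, is the uppermost receptor.

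Genes with 2 probes gave a second view of each gene. Of 9 such genes, 4 had 3-array means on the same side of 0 at both probes, and only Sema3c had both probes on the same side on each array, though its probe AK004119 was under the empty limit at low glucose and its sign there is not a measured one. The gap between the means ran from 0.012 for Slit3 to 0.13 for Epha4. Epha4, a receptor of both ephrin classes in motor and cortical axons, was at -0.052, 0.090 and 0.090 at the probe NM_007936 and at -0.15, 0.051 and -0.17 at AK013481, in the order low glucose, then high glucose replicates 1 and 2. These means were 0.043 ± 0.082 (SD, n = 3, adjusted p 0.551) and -0.090 ± 0.12 (adjusted p 0.279). Sema7a, a lipid-anchored semaphorin that promotes axon growth, had means of 0.067 and -0.059. Dcc had a second probe, AK021125, at -0.00070, -0.062 and -0.021, below 0 on each array where NM_007831 was above it. Plxna2 had means of 0.0084 and -0.048, Plxna1 of -0.010 and -0.058, and Efna3 of -0.016 and -0.042. The files give no probe positions, so whether the probes of a gene read the same transcript was not tested.

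**Figure D3:**
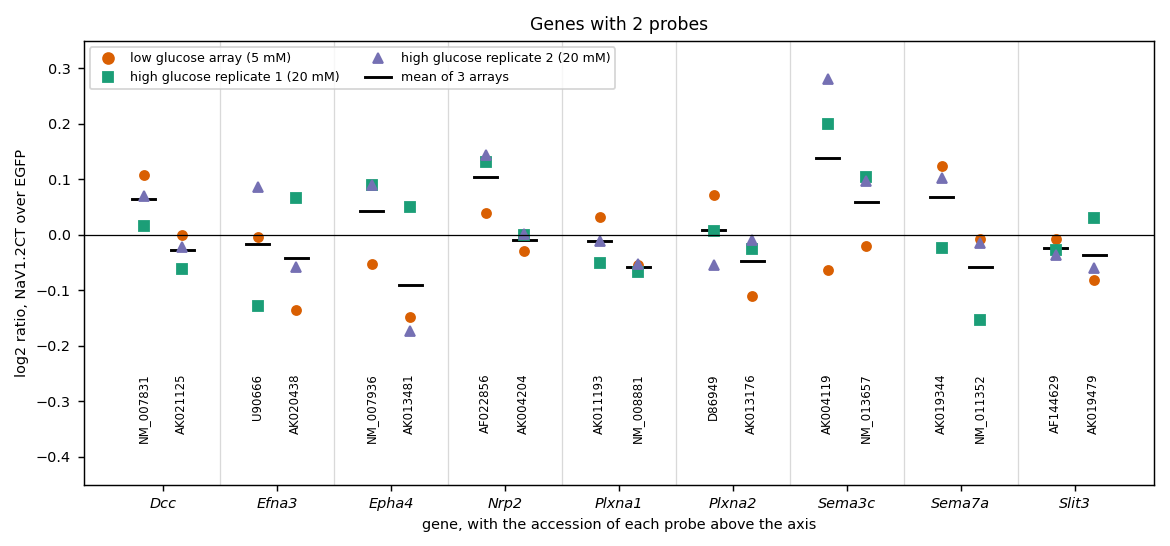
The log2 ratio of NaV1.2CT over EGFP (y axis) is plotted for both probes of each of the 9 genes with 2 probes, with 1 symbol per array and a bar for the mean of the 3 arrays. Both Sema3c probes lie above 0 on the high glucose arrays, AK004119 being under the empty limit on the low glucose array, while the Dcc, Epha4, Nrp2, Plxna2 and Sema7a probes have means on opposite sides of 0.

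Log ratios of all probes were shifted up at the bright end, where there was no axon guidance probe. The average log2 brightness of a probe over its channels is written A. Of all probes, 207 had an A of 15 or more, with a median mean log2 ratio of 0.15, and none of them was an axon guidance probe. The brightest was Sema3f, at an A of 14.9. The share of all probes with a mean above 0 was 71.4% below an A of 7, 34.1% between 7 and 8 and 39.8% between 13 and 14. Of the axon guidance probes there, 3 of 4, 1 of 3 and 2 of 7 were above 0, in that order. After a second loess over intensity, chosen with earlier results known, 39 of the 70 means were above 0 and 0 passed.

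Genes of the same pathway outside the 70 probes came from lists made with earlier results of these data known. Of 41 probes for 33 further ligands, receptors and co-receptors, such as Neo1, L1cam and Rgmb, 0 passed in any comparison. Of all probes, 3.85% passed over the 3 arrays, 2.11% at high glucose and 0.0276% between glucose levels. Over the 3 arrays 20 of the 41 means were above 0, with a median of -4.3e-06. Of 54 probes for 45 genes that carry guidance signals inside the cell, 1 was higher and 3 were lower over the 3 arrays, beside 1.17% and 2.68% of all probes. The list's median was -0.014. None passed at high glucose alone or between glucose levels, beside 2.11% and 0.0276% of all probes.

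The 3 lower probes were for regulators of actin at the growth cone. Abl2, a kinase that acts below Robo and Eph receptors, was at its probe U40827 at -0.24 at low glucose and -0.19 and -0.16 at high glucose. It fell by 0.20 ± 0.042 (SD, n = 3, limma adjusted p 0.0289), and every array was below 0. Its other probe, AF339052, had a mean of -0.0024 ± 0.033 (adjusted p 0.976). Evl and Vasp both belong to the Ena/VASP family, which lengthens actin filaments. Evl, at -0.14, -0.21 and -0.18 in the order low glucose, then high glucose replicates 1 and 2, fell by 0.17 ± 0.036 (adjusted p 0.0361). Vasp, at -0.20, -0.11 and -0.16, fell by 0.15 ± 0.046 (adjusted p 0.0493). The 2 probes of the family's other gene, Enah, had means of 0.038 and -0.010 and did not pass. Vav2, a signalling protein that acts below Eph receptors, was the higher probe. It was at 0.15 at low glucose and 0.17 and 0.20 at high glucose and rose by 0.17 ± 0.027 (adjusted p 0.0361). With plain subtraction, a normexp offset of 0 or the authors' net intensities, none of the 4 probes passed, with 0.065 as the lowest adjusted p. After the second loess over intensity Vasp no longer passed (adjusted p 0.0514). With loess over the whole array Abl2 U40827, Vasp and Vav2 passed, where 34.9% of all probes did. Evl did not pass there, at -0.070 (adjusted p 0.23). With median centring Abl2 U40827 was at -0.090 and Evl turned sign, to 0.22. Leaving out 1 array left 0 to 2 of the list's probes called, 0 of them without the low glucose array.

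Of the 21 probes for sympathetic neuroblastoma markers, Isl1 and Nefm rose and Slc6a2 fell over the 3 arrays, at means of 0.18, 0.16 and -0.23. These 2 of 21 higher and 1 of 21 lower stand beside 1.17% and 2.68% of all probes. Slc6a2, the noradrenaline transporter, also passed at high glucose at that probe, NM_009209. Its other probes had 3-array means of -0.13 at L19564 and 0.034 at U92654 and did not pass. With the other background settings or the net intensities, none of these markers passed, and after the second loess Nefm did not (adjusted p 0.0519).

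The count of axon guidance probes called differed most from 0 in the 2 settings without loess per print block on raw intensities. With loess over the whole array, 25 of the 70 passed over the 3 arrays, 12 higher and 13 lower, beside 34.9% of all probes. With median centring, which also leaves any trend with brightness in place, it was 27, 16 higher and 11 lower, beside 40.4%. In the whole-array setting, differences between print blocks made up 52.4% of the variance of log ratios at low glucose and 54.1% and 40.4% at high glucose. Across the 70 probes, the mean log ratio then had a Pearson's r of 0.839 with the median of all probes in the same block. With loess per print block it was 0.0672, a low value set in advance, since that loess removes differences between blocks. With median centring those shares were 22.3%, 23.3% and 22.6%, and r was 0.547. How far blocks and brightness each moved the count was not tested. The 70 probes lay in 39 of the 48 print blocks, so probes of a block share this part of their value. The sign of the 3-array mean turned for 24 of the 70 probes with whole-array loess and 20 with median centring.

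**Figure D4:**
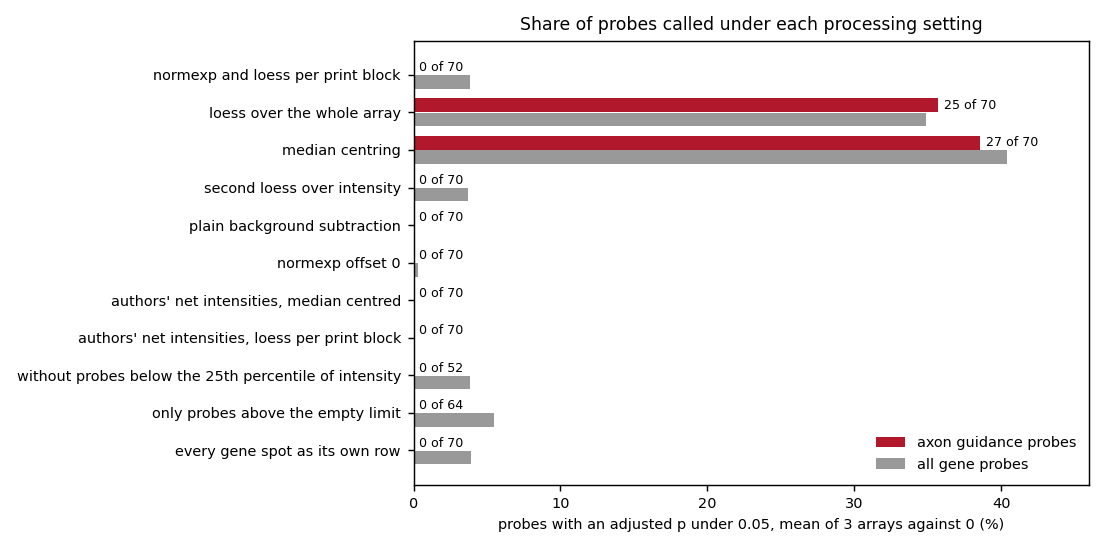
Bars give the share of probes with an adjusted p under 0.05 over the 3 arrays (x axis, in percent), for axon guidance probes and for all gene probes, under each processing setting (rows). The numbers beside the bars count axon guidance probes, which reach 25 and 27 of 70 with loess over the whole array and with median centring, and 0 in the other settings drawn.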

How the data were processed

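RNA of NaV1.2CT and EGFP cells was hybridised together on each of 3 spotted 2-colour arrays. Per the file headers, the deposited raw and background intensity are spot means for either channel. The deposited net intensity is raw minus background, with a further factor per spot in the NaV1.2CT channel, and the deposited score is a z-score per spot. The making of factor and score, and the scanner, are not given in the sources used here. Summary lines after the spots were left out. Raw and background intensities were corrected with normexp (offset 50) and log2 ratios normalized by loess within each of 48 print blocks, empty spots at weight 0, with limma 3.58.1 in R 4.3.3. Spots of one accession and description were averaged (21766 gene spots, 21761 probes). The tests were limma's lmFit and eBayes, two-sided, with p-values adjusted over all probes (Benjamini-Hochberg), with residual degrees of freedom of 2 for the 3 arrays and 1 for each other comparison, and a prior of 7.16 and 7.54. The fit was tested on simulated data, with planted changes larger than the 3-array mean of any axon guidance probe. Genes of the other lists were matched through current symbols of a RefSeq table of assembly GRCm38.p6, used for names only. No probe was filtered out on brightness, and control and empty spots were not tested. Every probe of the rule was eligible to be named. Full statistics went to those past the threshold, to the highest and lowest of each class and to textbook pairs. The members and lists were chosen with earlier results of these data known, and loess per print block replaced whole-array loess for the same reason. Other settings are given at the end.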

Additional observations from a re-analysis of the deposited data

How the results depend on the processing

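Over the 3 arrays 0 of the 70 probes passed under 8 of the 10 other settings run, while loess over the whole array gave 25 (all probes 34.9%) and median centring 27 (40.4%). With 1 array left out the count ran from 0 to 1, the 1 being Sema3c AK004119 without the low glucose array. At high glucose the count of 1 became 24 with whole-array loess (all probes 35.1%), 23 with median centring (37.3%), 2 after the second loess (4.43%) and 2 among probes above the empty limit (4.07%), Ephb2 being the addition in the last 2. Without dim probes it was 1 again, but Ephb2, since Sema3c AK004119 was among those left out. It became 0 with plain background subtraction, with a normexp offset of 0 and with the authors' net intensities, median centred or with loess per print block. Between glucose levels it was 0 under all 10. The median of the 70 means was 0.033 with whole-array loess and 0.038 with median centring, and 0.0064 to 0.013 with 1 array left out. Over all probes the 837 calls of the 3 arrays became 71 with a normexp offset of 0, 2 with plain subtraction and 4 with the net intensities, median centred.

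With whole-array loess and median centring, the calls over the 3 arrays became 23 and 22 for the signalling list, 13 and 14 for the further ligands and receptors, 9 and 10 for the neuroblastoma markers and 8 and 6 for markers of other cell types. These lists have 54, 41, 21 and 23 probes, and the share of all probes was 34.9% and 40.4%. With plain subtraction, offset 0 and both uses of the net intensities, the signalling list and the neuroblastoma markers had 0 calls each. With 1 array left out they ran over 0 to 2, 0 to 1, 1 to 3 and 0, in the order of the lists above.

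Whole-array loess and median centring turned the sign of some values past their threshold, and the cause was not tested. With loess over the whole array these were, over the 3 arrays, Robo4 -0.22, Ephb3 -0.25, Efnb3 -0.22, Sema3f -0.28, Unc5cl -0.15 and Sema3e -0.14, and at high glucose Robo4 -0.17, Ephb3 -0.22 and Efnb3 -0.14. With median centring they were, over the 3 arrays, Robo4 -0.29, Ephb3 -0.27, Unc5cl -0.15, Sema3e -0.24, Plxnc1 0.24, Plxna2 AK013176 0.23, Epha7 0.20, Epha5 0.40 and Sema3b 0.43, besides Evl of the signalling list at 0.22, and at high glucose Robo4 -0.25, Ephb3 -0.22, Sema3f 0.19, Unc5cl -0.16, Unc5b -0.17, Sema3c AK004119 -0.047, Sema3e -0.22, Plxnc1 0.27, Plxna2 AK013176 0.26, Epha7 0.19, Plxna2 D86949 0.30 and Epha5 0.48, where Sema3c lost its call. The second loess turned the sign of 6 of 70 means and the authors' net intensities with loess of 7, none past the threshold. The deposited z-score had the sign of the log ratio for 60 of 68 scored probes on the low glucose array and 60 of 67 and 39 of 42 on the high glucose arrays. NaV1.2CT and EGFP are paired within each array by the log ratio itself. No paired analysis was possible because, between the glucose levels, the labels give replicate numbers to the high glucose arrays only. Leaving out 1 high glucose array left no residual degrees of freedom at high glucose or between glucose levels, so no test was made there. The number of arrays and the signal over background of dim spots limit the precision.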
